A study of Mus musculus with 12 samples.

Results

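The genes described here are 10 genes of the intestinal stem cell and of Wnt signalling, which are Lgr5, Olfm4, Ascl2, Smoc2, Axin2, Sox9, Lrig1, Rnf43, Znrf3 and Ephb2. They were taken by symbol from the deposited expression table, where all 10 were found among 34348 genes. RNA sequencing measured total RNA from small intestine and from liver in C57BL/6 mice, per the labels, with 3 libraries in each of 4 sets. The groups are LCWE intestine, PBS intestine, LCWE liver and PBS liver, where LCWE marks the induced mice and PBS, phosphate-buffered saline, their controls. LCWE is not written out in the labels and commonly stands for Lactobacillus casei cell wall extract, an agent that causes a vasculitis in mice. In the authors' comparison table the treated groups carry the name LCWECFA, and CFA is not explained, so LCWE stands for whatever those mice received. Age, sex, dose and time are not given in the sources used here. Replicates are numbered 1, 2 and 4 in LCWE and 2, 3 and 4 in PBS, and values are given in that order. Nothing says that each library is a separate animal, so the p-values rest on a spread between libraries that may be technical.

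Stem cells at the base of the intestinal crypts divide throughout life and renew the epithelium, and Wnt ligands keep them in that state. A Wnt ligand bound to Frizzled and LRP receptors stops the destruction of beta-catenin, which then enters the nucleus and, with TCF/LEF factors, turns on target genes. R-spondins bound to LGR receptors remove the ubiquitin ligases RNF43 and ZNRF3 from the cell surface and so leave more Wnt receptors in place. In the liver the same pathway is most active in the hepatocytes around the central vein, where it sets the pericentral set of metabolic genes.

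By position in mm10, as the deposited table gives them, the genes that mark stem cells are Lgr5 at chr10:115450311-115587780 on the minus strand, Olfm4 at chr14:80000302-80021930 on the plus strand, Ascl2 at chr7:142966829-142969264 on the minus strand and Smoc2 at chr17:14279506-14404790 on the plus strand. The feedback inhibitors of the pathway are Axin2 at chr11:108920349-108950783 and Rnf43 at chr11:87662722-87735539 on the plus strand, and Znrf3 at chr11:5276324-5444847 on the minus strand. The remaining crypt genes are Sox9 at chr11:112782224-112787760 on the plus strand, Lrig1 at chr6:94604529-94700158 and Ephb2 at chr4:136647539-136835988, both on the minus strand. All 10 are protein coding in the GENCODE M21 annotation, whose ends match these for every gene except Olfm4. Whether the libraries keep strand is not stated. Genes are annotated on the opposite strand within Lgr5, Axin2 and Smoc2 (A930009A15Rik, Gm11670 and 4930474M22Rik). Where exons overlap, which was not checked, their reads may therefore not be told apart. By their whole spans, Olfm4, Lrig1 and Rnf43 overlap other annotated genes in part.

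Promoter windows of RefSeq on GRCm38.p6, 250 bases before to 50 bases after a start, matched 6 of the 10 genes with 7 windows (Axin2, Olfm4, Lrig1, Ephb2, Ascl2 and 2 starts of Rnf43). The windows of Axin2, the general Wnt target, and Olfm4, the member with the widest difference between the tissues, are shown because these genes carry the results on tissue level. Both lie on the plus strand and run 5′ to 3′, at chr11:108920099-108920398 for Axin2 and chr14:80000052-80000351 for Olfm4. Capitals mark the GC box GGGCGG in Axin2 and the TATA core TATAA in Olfm4.
Axin2: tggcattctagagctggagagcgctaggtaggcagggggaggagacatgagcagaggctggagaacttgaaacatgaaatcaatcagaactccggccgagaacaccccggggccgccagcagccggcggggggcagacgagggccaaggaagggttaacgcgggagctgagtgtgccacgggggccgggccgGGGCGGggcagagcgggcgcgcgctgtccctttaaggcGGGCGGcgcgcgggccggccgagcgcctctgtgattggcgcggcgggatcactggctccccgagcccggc
Olfm4: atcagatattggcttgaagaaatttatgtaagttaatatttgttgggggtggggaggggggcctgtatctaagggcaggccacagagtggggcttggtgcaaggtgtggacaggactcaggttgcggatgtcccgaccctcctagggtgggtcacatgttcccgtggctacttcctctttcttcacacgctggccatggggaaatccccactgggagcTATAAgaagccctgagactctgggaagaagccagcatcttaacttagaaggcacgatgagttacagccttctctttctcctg
The TATAA of Olfm4 begins 32 bases upstream of the start, and the GC boxes of Axin2 begin 58 and 20 bases upstream. Searched on both strands, TATAA stood in 1 of the 7 windows, against 24.9% of all 32851 RefSeq windows of this length. GGGCGG stood in 3 of the 7, those of Axin2, Lrig1 and Ascl2, against 35.7% of all windows. The TCF/LEF core CTTTGAT stood in none of the 7 and in 3.70% of all windows, which says only that these letters are not in these windows. GC content was 70.0% in the Axin2 window and 52.3% in the Olfm4 window, with a median of 52.7% over all windows.

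Depth was similar between the tissues, at 30294594 to 40253006 gene-assigned reads per intestinal library and 34741958 to 44921885 per liver library. Levels are RPKM, which corrects reads for gene length and for library depth, so they can be compared between genes. Epcam, an epithelial adhesion molecule, reached 1036 to 1660 RPKM in the LCWE intestine and 1275 to 1403 RPKM in the PBS intestine. Alb, the albumin gene of hepatocytes, reached 10519 to 13391 RPKM in the LCWE liver and 13375 to 23556 RPKM in the PBS liver. Exocrine pancreas markers summed to at most 0.495 RPKM in any intestinal library. In whole tissue, fewer cells of a type and less RNA per cell cannot be told apart.

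In the small intestine, the comparison of LCWE with PBS mice asks whether the stem cell and Wnt target genes differ in level after LCWE. None of the genes that could be tested passed the test. Of the 10 genes, 9 reached 0.5 RPKM in at least 3 of the 6 libraries, which the test required, and 0 of 9 were called by limma at an adjusted p below 0.05. That count stands against 0 of 17510 genes tested (0%), so the absence of calls is that of the whole comparison. At an unadjusted p below 0.05, limma counted 0 of the 9 genes and 2202 of all genes (12.6%), and voom on the recovered reads also called 0 members. The LCWE and PBS libraries overlapped for all 10 genes, while groups were apart for 19.3% of genes tested.

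**Figure D1:**
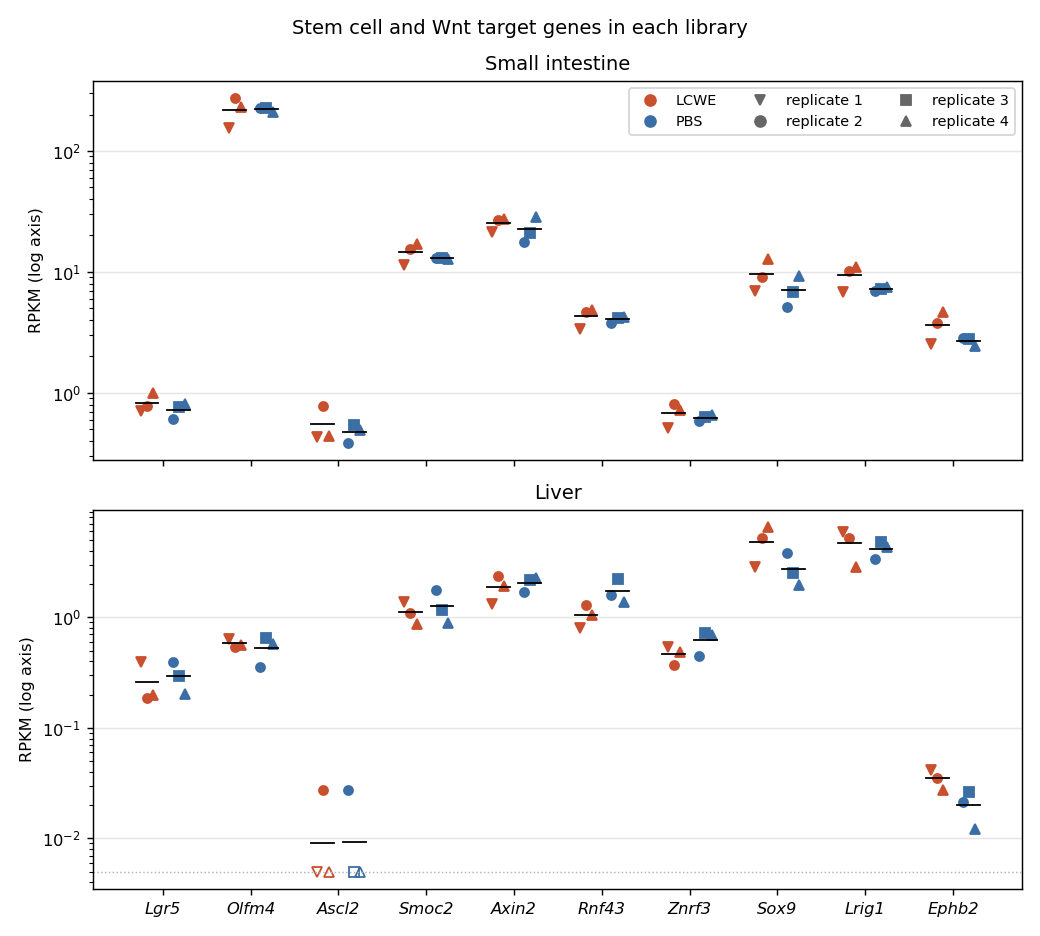
RPKM of the 10 genes in each library (log axis), LCWE left and PBS right within each gene, in the small intestine and the liver. Bars are group means over 3 libraries, and open symbols on the dotted line at the foot of the liver panel are libraries with 0 reads of Ascl2. In the intestine every pair of groups overlaps, and Olfm4 lies above all other genes.

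Among the stem cell markers, Lgr5, the R-spondin receptor whose expression defines crypt base columnar cells, stood at 0.709, 0.775 and 0.998 RPKM in LCWE intestine, against 0.610, 0.764 and 0.801 RPKM in PBS intestine. The groups overlapped, with LCWE replicate 4 alone above every PBS library. The difference was 1.08-fold with a 95% interval of 0.845 to 1.38 (adjusted p = 0.716, limma). Olfm4, a secreted glycoprotein abundant in the crypt base, stood at 154, 273 and 231 RPKM in LCWE intestine, against 227, 224 and 211 RPKM in PBS intestine. The PBS libraries lay close together and the LCWE libraries reached below and above them, with replicate 1 lowest. The log2 difference of Olfm4 was -0.05 (SE 0.21, adjusted p = 0.914), and it turned to 0.19 (adjusted p = 0.247) without LCWE replicate 1. Smoc2, a matricellular protein enriched in Lgr5 cells, stood at 11.3, 15.6 and 17.1 RPKM in LCWE intestine, against 13.0, 13.1 and 12.7 RPKM in PBS intestine. Here too LCWE replicate 1 was below and the other two above the PBS libraries (log2 difference 0.16, adjusted p = 0.633). Ascl2, a transcription factor that is needed for the stem cell state, stood at 0.429, 0.782 and 0.437 RPKM in LCWE intestine, against 0.387, 0.539 and 0.488 RPKM in PBS intestine. It did not reach the filter and was not tested, with 96 reads over the LCWE libraries against 76 over the PBS libraries.

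The feedback inhibitors of the pathway are themselves Wnt targets. Axin2, a scaffold of the complex that destroys beta-catenin, stood at 21.4, 27.0 and 27.5 RPKM in LCWE intestine, against 17.8, 20.9 and 28.6 RPKM in PBS intestine. The highest of all 6 values was that of PBS replicate 4, and the log2 difference was 0.19 (95% interval -0.26 to 0.64, adjusted p = 0.638). Rnf43, a membrane ubiquitin ligase that removes Frizzled receptors, stood at 3.39, 4.66 and 4.84 RPKM in LCWE intestine, against 3.75, 4.16 and 4.24 RPKM in PBS intestine. Znrf3, its close relative with the same role, stood at 0.516, 0.814 and 0.715 RPKM in LCWE intestine, against 0.584, 0.625 and 0.657 RPKM in PBS intestine. Both genes had their lowest value in LCWE replicate 1 and values above all PBS libraries in the other LCWE libraries. Their log2 differences were 0.06 for Rnf43 (adjusted p = 0.835) and 0.07 for Znrf3 (adjusted p = 0.832), and both lay below 0 with quantile scaling (-0.03 and -0.02) and with median-ratio scaling (-0.04 for Rnf43, and just below 0 for Znrf3). Leaving out 1 library also turned them, to -0.02 for Rnf43 without LCWE replicate 4 and to -0.01 for Znrf3 without LCWE replicate 2. Rnf43 was 6.56, 5.73 and 6.77 times the level of Znrf3 in LCWE intestine, against 6.41, 6.65 and 6.46 times in PBS intestine, a ratio per gene length in each library.

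The other crypt genes had the largest estimated differences of the 9 tested genes, though none was called. Sox9, a transcription factor of crypt base and Paneth cells, stood at 6.90, 9.06 and 12.7 RPKM in LCWE intestine, against 5.14, 6.76 and 9.17 RPKM in PBS intestine. The ranges overlapped widely, and the estimate was 1.33-fold with an interval of 0.857 to 2.07 (adjusted p = 0.510). Lrig1, a transmembrane protein that restrains ErbB growth factor receptors, stood at 6.86, 10.2 and 11.0 RPKM in LCWE intestine, against 6.94, 7.26 and 7.44 RPKM in PBS intestine. LCWE replicates 2 and 4 were above all PBS libraries and replicate 1 below them (1.26-fold, interval 0.941 to 1.67, adjusted p = 0.460). Ephb2, an ephrin receptor that holds undifferentiated cells low in the crypt, stood at 2.52, 3.81 and 4.62 RPKM in LCWE intestine, against 2.83, 2.80 and 2.42 RPKM in PBS intestine. LCWE replicate 1 lay within the PBS range and the other LCWE libraries above it (1.27-fold, interval 0.915 to 1.78, adjusted p = 0.479). Without LCWE replicate 1 the log2 differences were 0.53 for Lrig1 (adjusted p = 0.0647), 0.56 for Ephb2 (adjusted p = 0.0732) and 0.61 for Sox9 (adjusted p = 0.177).

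**Figure D2:**
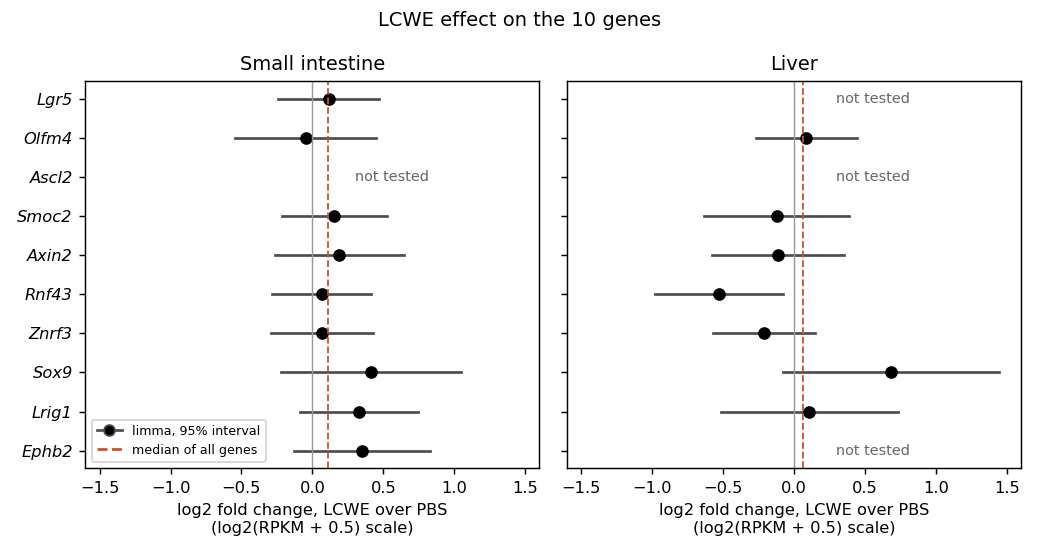
Log2 fold change of LCWE over PBS with its 95% interval (limma, log2(RPKM + 0.5) scale) for each tested gene in the small intestine and the liver, beside the median of all genes tested in that tissue (dashed). Intervals of all 9 intestinal genes span 0, and that of Rnf43 in liver, at -0.53, lies below 0.

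Over the tested genes, 8 of 9 estimates were above 0, those of Rnf43 and Znrf3 except under the alternatives named for them, and that of Olfm4 was below, with a median of 0.16 on the log2 scale. All genes tested had a median of 0.11, with 69.0% above 0. LCWE replicate 1 was the lowest LCWE library for 10 of 10 genes, and it was the lowest for 59.9% of all genes tested. PBS replicate 4 lay within the range of the LCWE libraries for 8 of 10 genes, with Axin2 above and Ephb2 below that range. The order of levels in PBS intestine was Olfm4, Axin2, Smoc2, Lrig1, Sox9, Rnf43, Ephb2, Lgr5, Znrf3 and Ascl2, in which Lrig1 and Sox9, and Lgr5 and Znrf3, overlapped with each other. In LCWE intestine Sox9 stood before Lrig1, again with overlap, and the other places were alike. Olfm4 ranked 255th of 29480 genes with reads in PBS intestine, and Lgr5 15860th. Among LCWE libraries Olfm4 ranked 267th of 29968 genes, and Lgr5 15814th. Olfm4 and Ascl2, the most and the least abundant of the 10 genes, are both stem cell markers.

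Markers of intestinal cell types and of position along the gut also differed between these libraries, and their part in the values was not tested. Enterocyte markers were lower in LCWE for 12 of 12 genes tested, 9 of them at an unadjusted p below 0.05 and none called, with summed levels of 3483 to 10177 RPKM in LCWE intestine against 15044 to 27949 RPKM in PBS intestine. Fabp2, a fatty acid binding protein of enterocytes, stood at 3350, 2656 and 676 RPKM in LCWE intestine, against 9408, 9206 and 5747 RPKM in PBS intestine (adjusted p = 0.285). Markers of the proximal intestine summed to 51.7 to 124 RPKM in LCWE intestine against 106 to 1674 RPKM in PBS intestine, and those of the distal small intestine to 4185 to 6301 RPKM in LCWE intestine against 425 to 3920 RPKM in PBS intestine. Most of the proximal sum was Fabp1, on average 83.1 of 84.9 RPKM in LCWE intestine and 692 of 738 RPKM in PBS intestine. Fabp1 and Lct are also in the enterocyte list, so these 2 sums are not independent. In PBS replicates 2, 3 and 4 the distal markers summed to 425, 2368 and 3920 RPKM. Among these 3 libraries 6 of the 10 genes (Lgr5, Axin2, Sox9, Lrig1, Rnf43 and Znrf3) stood in the same order as the distal sum, 2 (Olfm4 and Ephb2) in the reverse order and 2 (Ascl2 and Smoc2) in neither. The share of all genes in that order was not counted, so no link to position can be read from it. PBS replicate 2 was lowest for 7 of 10 members and 47.3% of all genes tested. Replicate 4 was highest for 6 of 10 and 39.4%. Sox9 was 5.14 RPKM in the library with the lowest distal sum and 9.17 RPKM in that with the highest. Markers of Paneth cells, the neighbours of the stem cells, summed to 22934 to 38399 RPKM in LCWE intestine and 28758 to 33550 RPKM in PBS intestine. Genes of dividing cells were above 0 for 15 of 15 tested, with a median log2 difference of 0.25 and none called, and summed to 264 to 350 RPKM in LCWE intestine against 237 to 290 RPKM in PBS intestine. Fibroblast markers were above 0 for 8 of 8, with none called, and summed to 105 to 180.0 RPKM in LCWE intestine against 91.3 to 125 RPKM in PBS intestine. Leukocyte markers (11 of 11 tested) and endothelial markers (6 of 6) were above 0 as well, as were 69.0% of all genes tested. Fat cell markers were below 0 for 3 of 3 tested, with none called, and summed to 8.64 to 16.1 RPKM in LCWE intestine against 38.0 to 73.4 RPKM in PBS intestine.

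**Figure D3:**
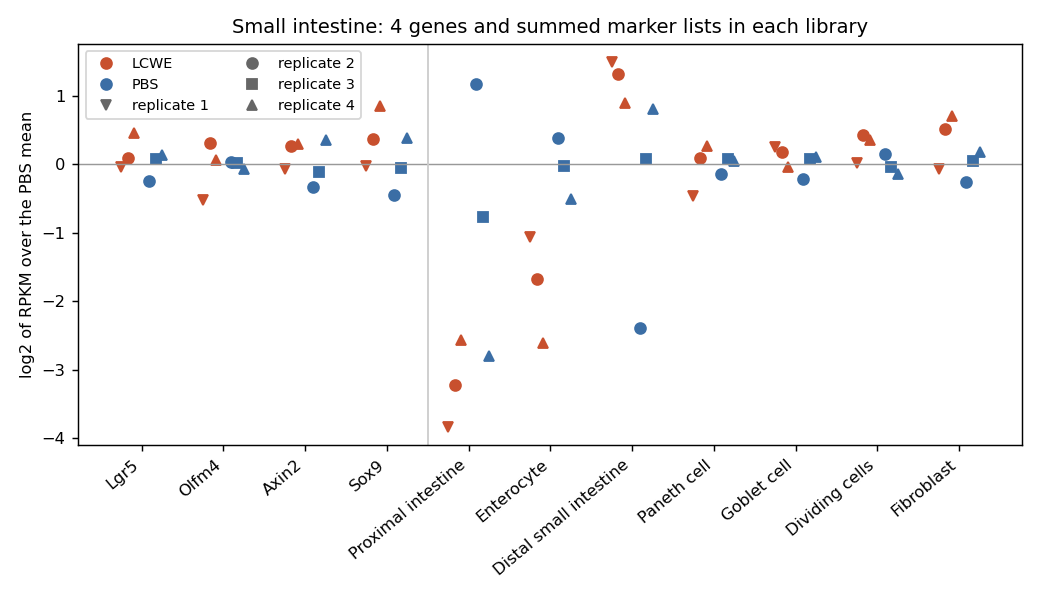
Level of 4 of the genes and summed RPKM of 7 marker lists in each small intestinal library, as log2 over the PBS mean, with LCWE left of PBS. The 4 genes keep within about 1 log2 unit, while the position and enterocyte markers spread over several units, also among the PBS libraries.

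Other genes of the stem cell and Wnt programme gave no call in the intestine either. Of the further stem cell and crypt base genes, 10 of 11 tested lay above 0 (median 0.23), 3 of them at an unadjusted p below 0.05. Over all genes tested, 69.0% lay above 0 (median 0.11), and 12.6% had an unadjusted p below 0.05 (limma). Prom1, a membrane protein of crypt progenitors, stood at 8.95, 10.2 and 13.5 RPKM in LCWE intestine, against 7.26, 5.51 and 6.83 RPKM in PBS intestine (log2 difference 0.68, adjusted p = 0.244). Its groups did not overlap, and neither did those of Cdca7 (0.56, adjusted p = 0.304) and Slc12a2 (0.46, adjusted p = 0.332). Of the further Wnt targets of the crypt, 10 of 11 tested lay above 0 (median 0.27). Cd44, a hyaluronan receptor of the crypt, stood at 6.03, 8.63 and 9.98 RPKM in LCWE intestine, against 4.84, 5.04 and 5.28 RPKM in PBS intestine, without overlap (0.62, adjusted p = 0.285). Myc, the growth-promoting transcription factor, stood at 5.10, 8.48 and 12.4 RPKM in LCWE intestine, against 4.99, 5.11 and 4.67 RPKM in PBS intestine (0.67, adjusted p = 0.395).

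Upstream of the target genes, 0 of 6 tested Wnt ligand and secretion genes and 0 of 3 tested R-spondin and receptor genes were called in the intestine. Wls, the carrier that brings Wnt proteins to the cell surface, stood at 3.17, 2.99 and 3.75 RPKM in LCWE intestine, against 1.47, 2.17 and 2.19 RPKM in PBS intestine, without overlap (log2 difference 0.65, adjusted p = 0.242). Wnt3, the ligand made by Paneth cells, stood at 1.25, 1.51 and 2.09 RPKM in LCWE intestine, against 0.911, 1.02 and 1.93 RPKM in PBS intestine, with overlap. Rspo3, an R-spondin of the stroma, stood at 1.70, 2.41 and 2.89 RPKM in LCWE intestine, against 1.67, 2.25 and 2.66 RPKM in PBS intestine. Lgr4, the broadly expressed relative of Lgr5, and Ctnnb1, which encodes beta-catenin, had log2 differences of -0.02 and 0.00. Rspo1, another R-spondin of the stroma, had a difference of 0.35, the TCF factor Tcf7l2 of -0.14 and the target gene Nkd1 of 0.12, none of them called. Rspo2 and Notum did not reach the filter there. In the lists of Frizzled and LRP receptors (9 tested), secreted inhibitors (4), beta-catenin destruction and transcription (17), the BMP pathway (13) and the Notch pathway (9), 0 genes were called. Atoh1, the factor that commits crypt cells to the secretory lineage, stood at 6.65, 7.72 and 7.78 RPKM in LCWE intestine, against 3.47, 4.83 and 5.32 RPKM in PBS intestine, without overlap (0.66, adjusted p = 0.238). All 13 tested BMP pathway genes lay above 0, with a median of 0.24, beside 69.0% of all genes tested, with a median of 0.11.

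In the liver, the same comparison asks whether these genes differ after LCWE where Wnt signalling acts in hepatocytes. None was called there, and Rnf43 had the smallest p of the 10 genes. Of the 10, 7 were tested, because Lgr5, Ascl2 and Ephb2 did not reach the filter, and limma called 0 of 7 against 582 of 14404 genes tested (4.04%). At an unadjusted p below 0.05 limma counted 1 of 7 and 18.7% of all genes, and voom called 0. The median log2 difference of the 7 was -0.11, with 3 above and 4 below 0, and that of all genes tested was 0.06, with 60.2% above 0.

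Rnf43 stood at 0.804, 1.28 and 1.04 RPKM in LCWE liver, against 1.59, 2.23 and 1.39 RPKM in PBS liver. The groups did not overlap, as for 8.84% of genes tested in the same direction. The log2 difference was -0.53 (SE 0.19, unadjusted p = 0.0272, adjusted p = 0.196), which is 0.693-fold with an interval of 0.508 to 0.946. The authors' deposited table, which lists 1001 genes, holds Rnf43 for the liver with a log2 fold change of -1.16 and a false discovery rate of 0.0643, and holds none of the other 9 genes. That change is larger than any estimate obtained here, where the alternatives ran from -0.72 to -0.26. The reason for the gap was not tested. Znrf3 stood at 0.534, 0.369 and 0.485 RPKM in LCWE liver, against 0.448, 0.718 and 0.686 RPKM in PBS liver, with overlap (log2 difference -0.21, adjusted p = 0.520). Rnf43 was 1.5, 3.47 and 2.15 times the level of Znrf3 in LCWE liver, against 3.54, 3.11 and 2.02 times in PBS liver. The ratio varied more between liver libraries than between intestinal ones.

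Axin2 stood at 1.33, 2.39 and 1.93 RPKM in LCWE liver, against 1.68, 2.19 and 2.26 RPKM in PBS liver, and its groups overlapped (log2 difference -0.11, adjusted p = 0.804). Sox9, which in liver marks bile duct cells and hepatocytes next to them, stood at 2.83, 5.19 and 6.52 RPKM in LCWE liver, against 3.81, 2.50 and 1.96 RPKM in PBS liver. LCWE replicates 2 and 4 were above every PBS library and replicate 1 was not (1.61-fold, interval 0.949 to 2.73, adjusted p = 0.316). Beside it, the bile duct marker Krt19 stood at 2.74, 2.39 and 2.65 RPKM in LCWE liver, against 2.46, 2.27 and 2.63 RPKM in PBS liver, and 0 of 4 tested bile duct markers were called. Their list summed to 30.0 to 36.0 RPKM in LCWE liver and 22.8 to 38.9 RPKM in PBS liver.

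Lrig1 stood at 5.94, 5.21 and 2.87 RPKM in LCWE liver, against 3.35, 4.82 and 4.32 RPKM in PBS liver, with the LCWE libraries on both sides of the PBS range (log2 difference 0.11, adjusted p = 0.861). Smoc2 stood at 1.38, 1.09 and 0.874 RPKM in LCWE liver, against 1.77, 1.16 and 0.889 RPKM in PBS liver (-0.12, adjusted p = 0.808). Olfm4 stood at 0.643, 0.543 and 0.562 RPKM in LCWE liver, against 0.355, 0.647 and 0.574 RPKM in PBS liver (0.09, adjusted p = 0.797, and -0.07 with quantile scaling). All 3 genes had overlapping groups. Lgr5 stood at 0.390, 0.187 and 0.199 RPKM in LCWE liver, against 0.393, 0.294 and 0.203 RPKM in PBS liver, and was not tested. Ephb2 had 20, 20 and 12 reads in LCWE liver, against 12, 12 and 6 reads in PBS liver, which is at most 0.0418 RPKM. By RPKM the lowest LCWE value, 0.0274, was just above the highest PBS value, 0.0266, and the gene was not tested. Ascl2 had 2 reads over the LCWE liver libraries and 2 over the PBS liver libraries, all in replicate 2 of each group.

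Around these genes, 2 of 7 tested further Wnt targets were called in liver, both higher, as were 3.39% of all genes tested, while 0.646% were called lower. Cd44 rose to 3.53, 3.68 and 4.32 RPKM in LCWE liver, against 0.873, 1.07 and 1.16 RPKM in PBS liver (log2 difference 1.5, adjusted p = 0.00557). Ccnd1, a cyclin that drives entry into the cell cycle, rose to 5.80, 6.55 and 4.57 RPKM in LCWE liver, against 2.65, 2.92 and 2.54 RPKM in PBS liver (0.93, adjusted p = 0.0247). Mki67, a marker of dividing cells, rose to 2.67, 3.15 and 3.85 RPKM in LCWE liver, against 0.917, 1.52 and 1.21 RPKM in PBS liver (1.12, adjusted p = 0.0260), 1 of 11 tested genes of dividing cells. The Notch ligand Dll1 fell to 0.656, 0.654 and 0.723 RPKM in LCWE liver, against 1.19, 1.35 and 1.16 RPKM in PBS liver (-0.56, adjusted p = 0.0493). Leaving out any 1 library other than LCWE replicate 4 and PBS replicate 2 ended the call of Ccnd1 (adjusted p of 0.0832 to 0.122). Leaving out any 1 other than PBS replicate 2 ended those of Mki67 (0.0614 to 0.123) and Dll1 (0.112 to 0.213), and that of Cd44 held in all 6 cases. Testing without the filter also ended the calls of Ccnd1 (0.0508), Mki67 (0.0621) and Dll1 (0.112), and a pseudocount of 0.1 (0.0550) or a filter at 1 RPKM (0.0517) that of Dll1. With the replicate number as a block none of the 4 was called (adjusted p of 0.140 for Cd44, 0.184 for Mki67, 0.312 for Ccnd1 and 0.607 for Dll1). Only the numbers 2 and 4 occur in both groups, so libraries with other numbers add nothing to the difference in that fit. Leukocyte markers were above 0 for 7 of 7 tested, with 5 called, and summed to 143 to 194 RPKM in LCWE liver against 48.1 to 67.8 RPKM in PBS liver. CD44 is also a leukocyte surface protein, and the part of leukocytes in these rises was not tested.

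The Wnt-dependent genes of the pericentral hepatocyte gave no call in liver, 0 of 9 tested, with a median log2 difference of 0.01. Of the 9, 5 lay above 0 and 4 below, and 1 had an unadjusted p below 0.05 (limma), against 18.7% of all genes tested. That gene was Slc1a2, with overlapping groups and a difference of 0.39 (adjusted p = 0.243). Rhbg had the next lowest p, with a difference of 0.46 (adjusted p = 0.302). Glul, glutamine synthetase, stood at 101, 91.1 and 73.6 RPKM in LCWE liver, against 89.0, 96.1 and 79.4 RPKM in PBS liver. Cyp2e1, a cytochrome of the same zone, stood at 816, 569 and 535 RPKM in LCWE liver, against 788, 778 and 646 RPKM in PBS liver. Both overlapped between the groups. Rspo3, the R-spondin made by central vein endothelium, stood at 3.69, 2.78 and 2.64 RPKM in LCWE liver, against 3.78, 4.06 and 4.56 RPKM in PBS liver, without overlap (log2 difference -0.40, adjusted p = 0.211). Fzd7, a Frizzled receptor, stood at 2.26, 2.63 and 3.0 RPKM in LCWE liver, against 3.39, 4.26 and 3.79 RPKM in PBS liver, also without overlap (-0.47, adjusted p = 0.129). Nkd1, a target and inhibitor of the pathway, stood at 2.99, 2.46 and 1.86 RPKM in LCWE liver, against 2.65, 4.32 and 3.53 RPKM in PBS liver (-0.44, adjusted p = 0.324). Bcl9, of the list of beta-catenin destruction and transcription, was higher, on average 0.871 RPKM in LCWE liver and 0.450 RPKM in PBS liver, without overlap. Its log2 difference was 0.53 (limma, adjusted p = 0.0737), and it was called in 2 of 11 alternatives. Of the 16 tested genes of that list, 13 lay above 0 and 3 below. Notum, a secreted enzyme that inactivates Wnt, stood at 6.40, 8.08 and 5.89 RPKM in LCWE liver, against 6.40, 7.99 and 6.63 RPKM in PBS liver, with overlap. Lgr4, Ctnnb1 and Tcf7l2 had log2 differences of 0.17, 0.04 and 0.19 in liver, and Myc of 0.52 (adjusted p = 0.267), none called. Wnt3 and Rspo2 had 0 reads in all 6 liver libraries.

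**Figure D4:**
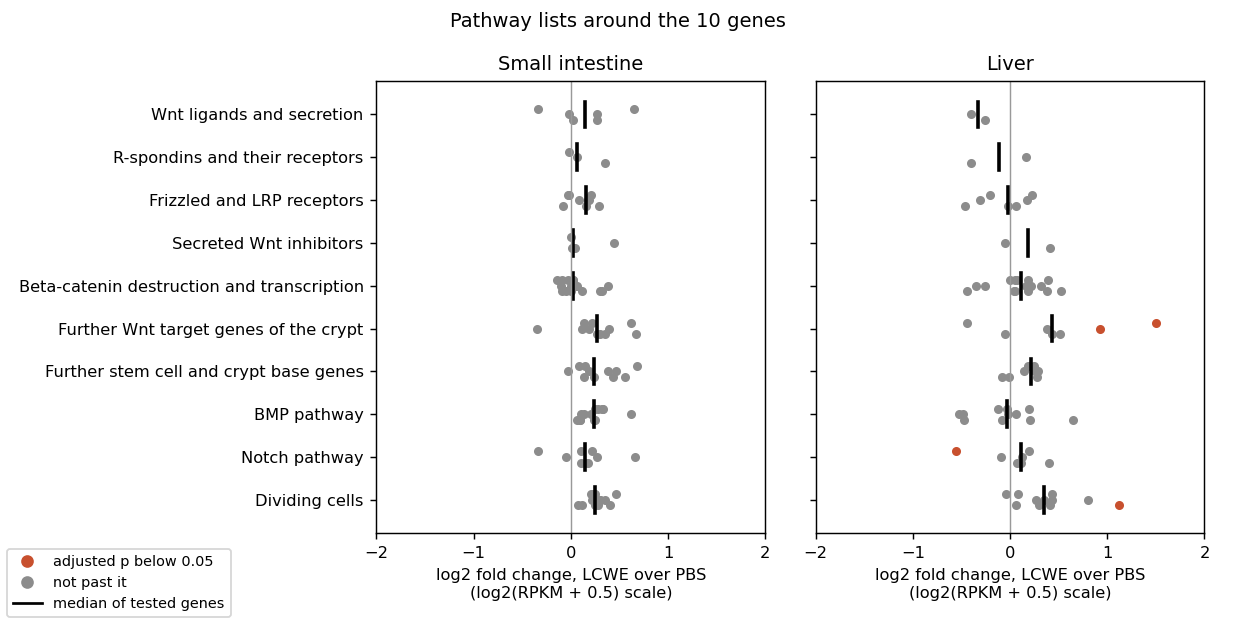
Log2 fold change of LCWE over PBS (log2(RPKM + 0.5) scale) for the tested genes of 10 lists around the Wnt pathway and the crypt, in the small intestine and the liver, with the median of each list as a bar. No gene is past the threshold in the intestine, and the 4 coloured points in liver are Cd44, Ccnd1, Mki67 and Dll1.

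Whether LCWE acts differently on these genes in the 2 tissues was tested by subtracting the intestinal difference from the liver one. Limma called 0 of 9 genes tested, against 137 of 18619 genes (0.736%), and voom called 0. At an unadjusted p below 0.05 limma counted 1 of 9 (12.8% of all genes), Rnf43, with a difference of -0.59 on the log2 scale (95% interval -1.14 to -0.05, unadjusted p = 0.0348, adjusted p = 0.337). The other differences lay between -0.31 for Ephb2 and 0.27 for Sox9. That of Ephb2 turned to 0.43 (adjusted p = 0.849) with voom, since its liver levels of at most 0.0418 RPKM differ little once 0.5 RPKM is added.

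The last comparison sets liver against intestine in the PBS mice. Of the stem cell and Wnt target genes, 8 of 9 tested were called lower in liver (limma, 1 fit over the 4 groups). That stands against 60.5% of 18619 genes called lower and 77.1% called in either direction. Estimates lay below 0 for 9 of 9 members and for 13884 of all genes tested. The filter of 0.5 RPKM could be met by libraries of either tissue alone. Lgr5 and Ephb2, at most 0.393 and 0.0418 RPKM in any liver library, entered through the intestine only. Both are among the 8 genes called lower, and their direction follows in part from how they entered. Genes of the background could enter in the same way. Since most genes differ between these tissues, the count of genes says little by itself, and the sizes vary widely. The median of all genes was -0.69 on the log2 scale, and quantile and median-ratio scaling move that median by 0.70 and 0.61, so each difference is best read relative to it. With either scaling 5 of the genes were called, Olfm4, Axin2, Smoc2 and Ephb2 lower and Znrf3 higher in liver.

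Olfm4 averaged 0.525 ± 0.152 RPKM in PBS liver and 221 ± 8.67 RPKM in PBS intestine (SD, n = 3 each), a log2 difference of -7.76 (adjusted p = 2.25e-11). Axin2 averaged 2.04 ± 0.312 RPKM in PBS liver and 22.4 ± 5.60 RPKM in PBS intestine (-3.15, adjusted p = 6.56e-08). Smoc2 averaged 1.27 ± 0.452 RPKM in PBS liver and 12.9 ± 0.219 RPKM in PBS intestine (-2.95, adjusted p = 8.54e-08). These genes were far below their intestinal levels in all liver libraries. Ephb2 averaged 0.0200 ± 0.00732 RPKM in PBS liver and 2.69 ± 0.226 RPKM in PBS intestine (-2.61, adjusted p = 5.62e-08). Because 0.5 RPKM is added before the logarithm, this value understates the difference of Ephb2. Ascl2 was not tested, at 0.00920 RPKM on average in PBS liver and 0.471 RPKM in PBS intestine.

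Sox9, Rnf43, Lrig1 and Lgr5 had smaller differences between the tissues on this scale. Sox9 had a log2 difference of -1.21 (adjusted p = 0.00465), Rnf43 of -1.04 (adjusted p = 0.000196), Lrig1 of -0.74 (adjusted p = 0.0145) and Lgr5 of -0.62 (adjusted p = 0.00246). The value of Lgr5, a gene of low level, depended on the scale, at -1.08 (adjusted p = 0.00318) with a pseudocount of 0.1 and -1.31 (adjusted p = 0.000980) with voom. None of the 4 was called with quantile or median-ratio scaling, and the estimate of Lgr5 turned to 0.20 with quantile scaling. Without PBS liver replicate 2 the value of Lrig1 was -0.61 (adjusted p = 0.0569). Znrf3 averaged 0.617 ± 0.147 RPKM in PBS liver and 0.622 ± 0.0364 RPKM in PBS intestine, a log2 difference of -0.01 (adjusted p = 0.931), which turned to 0.81 (adjusted p = 6.37e-05) with quantile scaling and 0.43 (adjusted p = 0.00714) with median-ratio scaling.

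**Figure D5:**
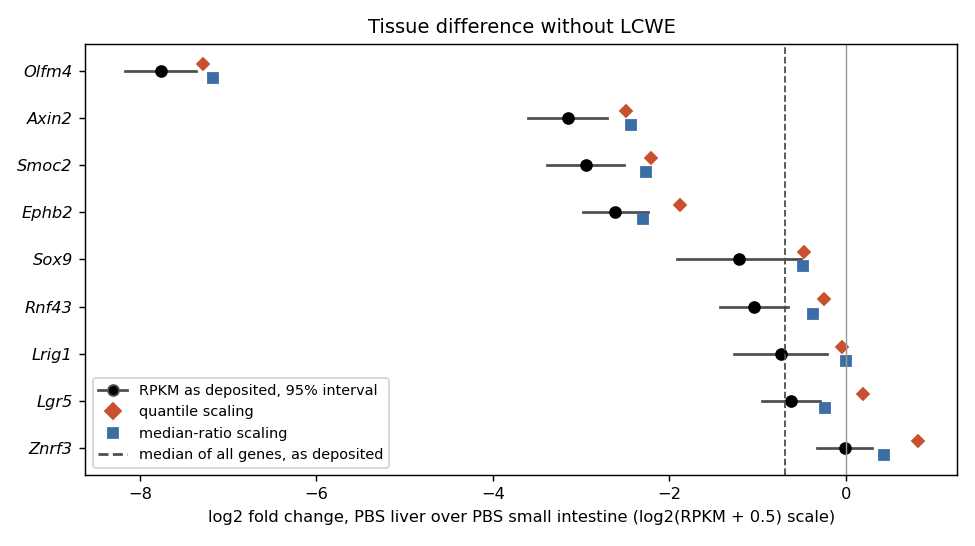
Log2 fold change of PBS liver over PBS intestine (log2(RPKM + 0.5) scale) with its 95% interval for the 9 tested genes, beside the values after quantile and median-ratio scaling and the median of all genes at -0.69 (dashed). Olfm4, Axin2, Smoc2 and Ephb2 lie far below that median under each scaling, and Znrf3 lies above it.

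The order of levels in liver was another one. In PBS liver it ran Lrig1, Sox9, Axin2, Rnf43, Smoc2, Znrf3, Olfm4, Lgr5, Ephb2 and Ascl2, and neighbours overlapped except Smoc2 above Znrf3 and Lgr5 above Ephb2. In LCWE liver Sox9 stood first and Lrig1 second, with overlap. Over all 6 libraries of each tissue, the mean liver level was 82.9% of the intestinal one for Znrf3, 53.4% for Lrig1, 45.9% for Sox9, 35.8% for Lgr5 and 33.3% for Rnf43. It was 8.65% for Smoc2, 8.22% for Axin2, 1.80% for Ascl2, 0.866% for Ephb2 and 0.252% for Olfm4. For the 8 Paneth cell markers, which the liver should lack, the same share ran from 0.188% to 0.468%, and the share of Olfm4 lay within that range. Whether the reads of Olfm4 in the liver libraries come from liver cells was not tested.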

How the data were processed

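Values are RPKM as the authors deposited them, 1 per gene and library. Tools named in the submitters' processing notes, with no role stated, are edgeR 3.12.1, Subread 1.5.1, featureCounts and Trimmomatic 0.36, and the build is mm10. No source used here gives the aligner. Of 16 library columns, 12 matched the labels and 4, which matched no sample, were not used. The authors' deposited comparison table gives a p-value, a false discovery rate and a log2 fold change. It holds only genes with a p-value of at most 0.0498 and an absolute log2 fold change of at least 1.00, and lists Rnf43 as the sole member. Converted back with gene length, 100% of the values were whole reads within 0.001, so depth is known.

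Genes with at least 0.5 RPKM in at least 3 libraries of a fit entered a test in limma 3.58.1 (R 4.3.3) of log2(RPKM + 0.5) values (trend, two-sided, Benjamini-Hochberg over all genes, called at an adjusted p below 0.05). This scale understates changes of low genes. Each tissue was fitted apart, and tissue differences in 1 fit over the 4 groups. With 3 libraries a group, exact permutation reaches no p below 0.1. The 10 members and the 27 gene lists were chosen with earlier results of these data known. Named are all members, up to 3 genes of a list with the lowest p, defining markers and direct partners of the pathway, whatever their values. Alternatives were pseudocounts of 0.1 and 1, no filter or 1 RPKM, quantile and median-ratio scaling, voom on recovered reads, 1 fit over 4 groups, PBS libraries alone, the replicate number as a block and leaving out each library. The procedure was tested on simulated data.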

Additional observations from a re-analysis of the deposited data

How the results depend on the processing

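With LCWE against PBS, 0 members were called in the intestine, in the liver and in the difference between tissues under every alternative run. Estimates near 0 changed sign under some of them, among others Axin2 in liver, at 0.07 without LCWE replicate 1, and Ephb2 in the tissue difference, at 0.43 with voom. For PBS liver against PBS intestine, 8 members were called as reported, 7 to 8 with 1 library left out, and 5 with quantile or median-ratio scaling. Reversed values were 0.20 for Lgr5 and 0.81 for Znrf3 with quantile scaling, and 0.000708 for Lrig1 and 0.43 for Znrf3 with median-ratio scaling, which by construction move the median of all genes towards 0.

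Over all genes, the intestine gave 0 calls, 213 in 1 fit over 4 groups and 70 without LCWE replicate 1. The sources used do not say whether equal replicate numbers mark the same mouse. Libraries with equal numbers were not treated as pairs. Their deviations from the group means correlated at -0.05 to 0.08 between the tissues and at -0.10 to 0.12 between LCWE and PBS. These correlations cannot show whether liver and intestine libraries share a mouse. With the replicate number as a block, 0 members were called in each LCWE comparison and 8 between the tissues. The liver calls over all genes then numbered 24, against 582 without the block, with Cd44 at an adjusted p of 0.140. Within a tissue only the numbers 2 and 4 occur in both groups, so libraries with other numbers add nothing to that difference. Ascl2 and liver Ephb2 rest on few reads.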

Other observations

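By the shape of their profile over the 12 libraries, measured as the mean absolute difference of centred log2 values among 13834 genes, the genes most like Lgr5 were Sugt1 (0.0846), Med28 (0.0851), Gla (0.0856), Olfm1 (0.0867) and Taz (0.0889). The nearest member was Lrig1 at 0.215, in place 2784. Those most like Axin2 were Mmrn1 (0.153), Pglyrp1 (0.158), Fhl1 (0.160), Clca3a2 (0.162) and Gap43 (0.168), with Smoc2 in place 184 and Ephb2 in place 201. The log2 values include the added 0.5 RPKM, which narrows the differences of a low gene such as Lgr5. Lgr5 averaged 0.725 RPKM in PBS intestine and 0.297 RPKM in PBS liver, and Sugt1 29.8 and 20.2 RPKM. All 12 values of a gene share their libraries, and the difference between the tissues makes up most of each profile of Axin2, so likeness is given as a description.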
